A study of Mus musculus with 2 samples.

Results

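Classical monocytes were taken from 2 scRNA-Seq libraries of mouse cholangiocarcinoma (CCA) by a gate on their transcripts. A cell was kept with 500 to 5000 detected genes and at most 10% of its unique molecular identifiers (UMIs, each 1 captured transcript) from mitochondrial genes. It was then gated with a UMI of at least 3 of the 5 markers *Ly6c2*, *Ccr2*, *Vcan*, *F13a1* and *Chil3*. Gated cells had at most 2 UMIs summed over the complement genes *C1qa* and *C1qb*, and no UMI of *Clec4f*, *Cxcr2*, *Cd3e*, *Cd79a* or *Flt3*, which mark Kupffer cells, neutrophils, T cells, B cells and dendritic cells or precursors. The gate held 238 of 31891 kept cells, 187 of 15531 in the PBS library and 51 of 16360 in the anti–PD-1 library. The cells were thus selected on the measured UMIs of these 12 genes, whose levels are a description.

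Both libraries came from tumor-bearing livers of shYT mice, in which doxycycline switches on shRNAs that target *Yap1* and *Wwtr1*, the latter encoding TAZ, wherever a ubiquitous CAG-driven rtTA3 is active. Tumors had been started by hydrodynamic tail vein injection of an active Notch domain (NICD) and myristoylated AKT. Doxycycline began on day 25, the control group received PBS, the other group received the PD-1 antibody on days 26, 29 and 32, and tumors were analysed on day 33. Since both groups carry the shRNAs, the comparison is of the antibody in YAP/TAZ-depleted hosts, with 1 library per group and no replicate to test it. The labels used here give neither the shRNA line, the sex nor the number of animals behind a library. The study's own account gives several animals per group for this experiment, without saying how they were combined.

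Classical monocytes are short-lived blood cells made in the bone marrow, which they leave through the chemokine receptor CCR2. In injured or tumor-bearing tissue they take up local signals, among them IFN-γ from T and NK cells and microbial or damage signals that act through NF-κB, and many then mature into macrophages or antigen-presenting cells. High Ly6C, lysozyme and the chitinase-like protein encoded by *Chil3* mark the early state, while complement C1q, apolipoprotein E and MERTK accompany maturation.

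The libraries held 121713441 (PBS) and 100807037 (anti–PD-1) UMIs, and median kept cells 3159 and 2990 UMIs. The gated cells were deeper, at medians of 6279 and 5676, and summed to 1167135 and 305311 UMIs, so that 1 UMI was worth 0.857 and 3.28 CPM, the scale used below for a gene's share of the gated UMIs of its library. A count of 0 allows up to 3 counts per library, or 2.57 and 9.83 CPM. The libraries shared 219 barcodes, 145 among kept cells and 0 among gated ones. *Xist* transcripts, which female cells make, were found in 84 gated cells of the PBS library and 0 of the anti–PD-1 library (a count of 0 allows up to 3 cells). Cells with a transcript of a Y-linked gene but none of *Xist*, called Y-positive cells here, numbered 17 and 27. The sex of the hosts and the antibody therefore cannot be told apart in the main comparison. All intervals given are exact 95% intervals (Poisson for counts, Clopper-Pearson for shares) and cover counting error only, since cells of 1 library are not replicates.

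Gated monocytes were 1.20% of kept PBS cells (interval 1.04 to 1.39) and 0.312% of kept anti–PD-1 cells (0.232 to 0.410). The intervals are apart, and the share was lower in the anti–PD-1 library by every alternative gate tried. Of gated monocytes and macrophages without *Clec4f* together (defined below), they were 6.25% (5.41 to 7.17) and 4.59% (3.44 to 5.99), with intervals that overlap. Both of these gates bar *Clec4f* UMIs. With gated Kupffer cells and neutrophils added to the total, the shares were 3.54% (3.06 to 4.08) and 1.09% (0.813 to 1.43), with intervals apart. Before the exclusions, 761 PBS and 439 anti–PD-1 cells had at least 3 markers, 4.90% and 2.68% of kept cells. The limit on *C1qa* and *C1qb* removed 60.8% and 67.4% of these, and a *Clec4f* UMI was present in 16.3% and 48.3%. *Clec4f* encodes a Kupffer cell lectin, yet in cells with at least 2 T cell genes and no other condition a *Clec4f* UMI was also found in 11.1% of 3646 PBS cells and 34.5% of 4129 anti–PD-1 cells, at median depths of 2893.5 and 3834 UMIs. In the same cells, over 2 *C1qa* and *C1qb* UMIs were found in 15.9% and 32.6%. A *Cd79a* UMI was in 2.58% and 11.2%, a *Cxcr2* UMI in 2.39% and 7.41% and a *Flt3* UMI in 1.26% and 1.67%. UMIs of excluded genes in cells that should lack them were thus more frequent in the anti–PD-1 library, whose cells of this kind were also deeper. All exclusions left 24.6% (PBS) and 11.6% (anti–PD-1) of the cells with at least 3 markers. The part of the exclusions in the lower share of gated cells was not tested, and no alternative gate dropped them all. With *Clec4f* UMIs allowed, an alternative added after seeing the data, 208 and 85 cells were gated, 1.34% and 0.520%.

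The 5 markers differed in direction. *Ly6c2* (chromosome 15, 75108158 to 75111970, mm10), which encodes the Ly6C surface protein, stood at 1774 CPM in the PBS library and 5886 CPM in the anti–PD-1 library, a log2 ratio of 1.73 (the anti–PD-1 value over the PBS value, each with 5 CPM added). The other 4 markers were lower in the anti–PD-1 library. *Chil3*, the chitinase-like lectin, had 7751 CPM in the PBS library and 2696 CPM in the anti–PD-1 library (log2 ratio −1.52). *F13a1*, coagulation factor XIII A, had 833 and 324 CPM (−1.35), *Ccr2* had 820.0 and 321 CPM (−1.34), and *Vcan*, the proteoglycan versican, 472 and 321 CPM (−0.55). Since a gate can shape the level of its own markers, each marker was also read in cells gated on at least 3 of the other 4. All of these cells are also in the main gate, between 144 and 174 of its 187 PBS cells and between 23 and 45 of its 51 anti–PD-1 cells. There the log2 ratios were 1.80 for *Ly6c2*, −1.63 for *Chil3*, −1.53 for *Ccr2*, −1.44 for *F13a1* and −0.55 for *Vcan*. The directions were the same, but with shared cells this is no separate check. Among Y-positive cells, by contrast, the difference stayed past 2-fold for *Ly6c2* alone (1.61). There *F13a1* had 359 and 341 CPM (−0.08), *Vcan* 396 and 357 CPM (−0.15), and the ratios of *Ccr2* and *Chil3* were −0.41 and −0.92. *Ccr2* was also under 2-fold when the gate was set on counts thinned to 1000 UMIs per cell, called the thinned gate (−0.72). Per cell, the median number of *Ly6c2* UMIs was 5 in PBS monocytes and 19 in anti–PD-1 monocytes, and that of *Chil3* 21 and 7. *Ly6c2* is not particular to monocytes: 19.5% of PBS and 27.2% of anti–PD-1 T cells (defined below, with at most 1 of the 5 markers) had a UMI. In cells with at least 2 T cell genes and no other condition the shares were 25.0% and 33.6%. Its neighbor *Ly6c1*, of near-identical sequence, was counted with 6 UMIs in each library, so reads could be split between them.

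**Figure D1:**
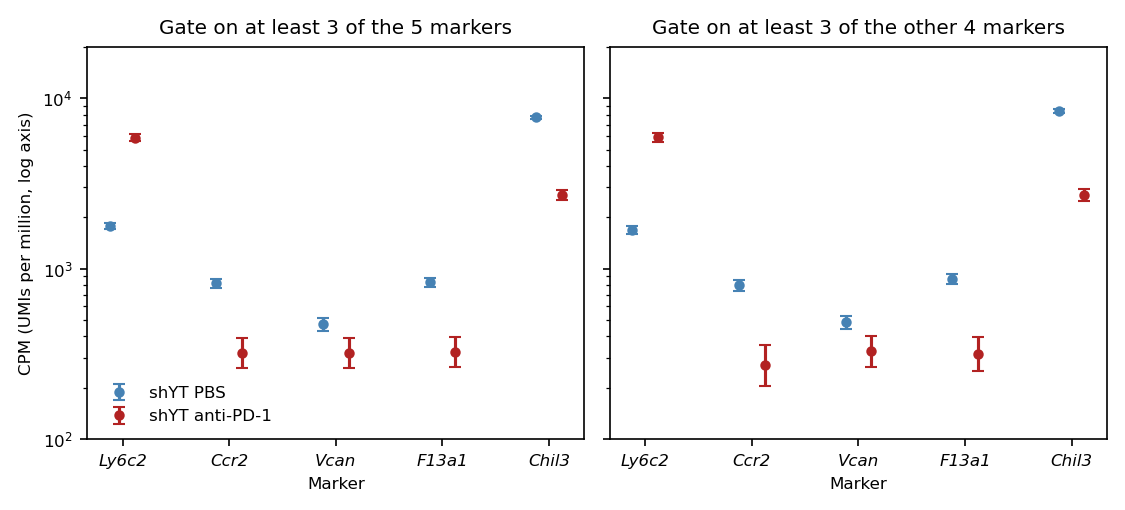
CPM of the 5 gate markers (log axis) in the shYT PBS and shYT anti–PD-1 libraries, with exact 95% Poisson intervals, in the gate itself (left) and in cells gated on at least 3 of the other 4 markers (right). *Ly6c2* is higher in the anti–PD-1 library in both panels (1774 against 5886 CPM on the left) and the other 4 are lower.

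Anti–PD-1 monocytes also passed the gate with fewer markers. In the PBS library 57, 67 and 63 cells had 3, 4 and 5 markers, and in the anti–PD-1 library 30, 12 and 9. Just outside the gate, 169 PBS and 115 anti–PD-1 cells met the exclusions with 2 markers. The gene of lysozyme, *Lyz2*, which the gate did not use, stepped up across this limit, from 30.2 UMIs per 10000 in cells with 2 markers to 138 with 3 and 305 with 5 in the PBS library, and from 41.8 to 136 and 222 among anti–PD-1 cells. Cells with 2 markers were also shallower (medians of 2647 and 3027 UMIs, against 4944 and 4068.5 with 3), and the part of depth in this step was not tested.

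Genes outside the rule were those of monocytes in most gated cells. Of 14 monocyte identity genes, the median cell had a UMI of 12 in the PBS and 11 in the anti–PD-1 library, against 2 in T cells of either and 5 and 6 in neutrophils, and 145 (77.5%) and 41 (80.4%) cells had at least 10. T cells (medians of 2673 and 3176 UMIs) and neutrophils (1596.5 and 1981) were shallower, and these counts were not matched for depth. *Lyz2* reached a median of 235 and 120 UMIs per 10000 against 2.70 and 2.82 in T cells. The label was not borne out in every cell, as 14 PBS and 5 anti–PD-1 cells were under 20 *Lyz2* UMIs per 10000. In the PBS library 1 cell held 678 of 687 UMIs of the mast cell proteases *Cpa3*, *Cma1* and *Tpsb2*, 1 cell held 1167 of 1400 UMIs of the granule genes *Mpo*, *Elane*, *Prtn3* and *Ctsg*, and 1 cell held 430 of 644 keratin (*Krt8*, *Krt18*) UMIs. In the anti–PD-1 library 1 cell held 70 of 71 UMIs of the plasmacytoid dendritic cell genes *Siglech*, *Ccr9* and *Cox6a2*, and 1 cell 98 of 100 UMIs of *Dcn*, a fibroblast proteoglycan. The gene counts and some medians are therefore also given with each gene's top cell left out in each library, a repeat added after seeing the data, in which 1 of 51 cells weighs more than 1 of 187.

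Across 8139 genes with a mean of at least 10 CPM, 524 were at least 2-fold higher in anti–PD-1 monocytes (6.44%) and 593 at least 2-fold lower (7.29%), with a median log2 ratio of −0.10. Without each gene's top cell the counts were 349 and 1188 and the median −0.29. Of the genes compared, 796 had at most 3 UMIs in the anti–PD-1 library, and 48 in the PBS library, so that lower values were the less precise. Among genes with a mean of at least 50 CPM, 234 were higher and 106 lower. The shares 6.44% and 7.29% are the background for each list that follows, which were assembled with earlier results of these data known.

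The IFN-γ response genes were higher as a group. IFN-γ switches on genes that arm cells against intracellular microbes and load MHC class I. Of 22 such genes 21 could be compared (*Ido1* was at 0 in both libraries), all 21 had a ratio above 0, and 17 were past 2-fold, with a median log2 ratio of 1.48 (1.43 without top cells). *Irf1*, a transcription factor gene that interferon induces, had 103 CPM in the PBS library and 295 CPM in the anti–PD-1 library (log2 ratio 1.48). The guanylate-binding protein gene *Gbp2* had 75.4 CPM in 32 PBS cells and 576 CPM in 32 anti–PD-1 cells (2.85). The immunity GTPase gene *Iigp1* was nearly absent from PBS monocytes, with 4 UMIs in 187 cells, and had 95 UMIs in 23 of 51 anti–PD-1 cells, a CPM ratio of 90.8 with a counting interval of 34.3 to 340.1. Its log2 ratio of 5.23 was 2.81 with at least 2 markers. Its relatives *Igtp* (57.4 and 305 CPM) and *Irgm1* (95.1 and 301 CPM) were past 2-fold as well. So were *Gbp4* (3.06), the inducible proteasome subunit gene *Psmb9* (1.60) and the peptide transporter gene *Tap1* (1.40). Of the T cell-attracting chemokine genes on the list, *Cxcl9* had 81.4 CPM in 10 PBS cells and 174 CPM in 12 anti–PD-1 cells (1.05), a direction that turned in Y-positive cells (−0.57). *Cxcl10* had 120.0 CPM (101 to 142) and 138 CPM (99.1 to 186), with intervals that overlap, and its log2 ratio ran from −0.63 to 2.07 among the alternatives.

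The list was higher in the anti–PD-1 library as a whole, and summed to 1833 and 4043 CPM over all kept cells, and to 1666 and 5109.5 CPM in gated monocytes. To set the depths equal, cells were thinned to 1000 UMIs, which left out 2 PBS cells. A *Gbp2* UMI was then present in 4.32% of PBS and 39.2% of anti–PD-1 monocytes, and in 5.13% and 8.69% of T cells. For *Iigp1* the shares were 0.541% and 17.6% in monocytes and 2.36% and 6.37% in T cells. In the anti–PD-1 library the monocyte shares of both genes were above those of T cells.

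Type I interferon response genes, which encode antiviral effectors, showed a like count: 11 of 14 compared were past 2-fold higher, 0 lower, with a median log2 ratio of 1.70. This list too was higher in the anti–PD-1 library as a whole, at 814 and 2059 CPM over all kept cells, and at 912 and 3164 CPM in gated monocytes. *Isg15*, a ubiquitin-like modifier, had 58.3 CPM (45.2 to 73.9) in PBS monocytes and 579.7 CPM (497 to 672) in anti–PD-1 monocytes (3.21), and was detected in 39 and 38 cells. *Irf7*, the factor that amplifies interferon production, had 109 and 426 CPM (1.92). *Ifit3* had 20.6 and 75.3 CPM (1.65), *Ifit2* 28.3 and 160.5 CPM (2.31), both of a family that binds viral RNA. The tethering factor gene *Bst2* had 141 and 478 CPM (1.72). *Rsad2*, the viperin gene, was among those that did not pass and the sole gene compared with a ratio below 0, at 30.0 and 29.5 CPM with overlapping intervals. Many genes respond to both interferons, and these values do not separate one from the other.

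Promoters of 3 of these genes are shown because they carry the motif through which type I interferon acts. Sequences are from RefSeq (GRCm38.p6), run 5′ to 3′ on the strand of the gene and lie upstream of the first start site listed. Capitals mark matches to the interferon-stimulated response element in the form GAAA, any 2 bases, GAAA on either strand. They are *Gbp2* (chr3:142620569-142620648, forward strand), *Isg15* (chr4:156200846-156200925, reverse strand) and *Ifit3* (chr19:34583355-34583434, forward strand).
Gbp2: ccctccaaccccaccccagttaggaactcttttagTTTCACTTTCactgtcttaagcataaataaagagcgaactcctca
Isg15: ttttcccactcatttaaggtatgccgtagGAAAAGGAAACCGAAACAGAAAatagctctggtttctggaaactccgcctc
Ifit3: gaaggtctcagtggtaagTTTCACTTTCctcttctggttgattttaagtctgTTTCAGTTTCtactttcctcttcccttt
The match of *Gbp2* begins 59 bases before its start, while *Isg15* holds 3 overlapping matches and *Ifit3* 2. Searched on both strands over the 300 bases listed per gene, the response element was found in 8 of 15 promoters of IFN-γ response genes in the table, in 6 of 11 of type I interferon genes, in 2 of 7 of MHC class I genes, in 2 of 10 of monocyte identity genes and in 3.49% of all 27025. These lists are made of known interferon targets, so the matches describe them and are no test of binding. *Iigp1*, *Ly6a* and *Ciita* had no entry.

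**Figure D2:**
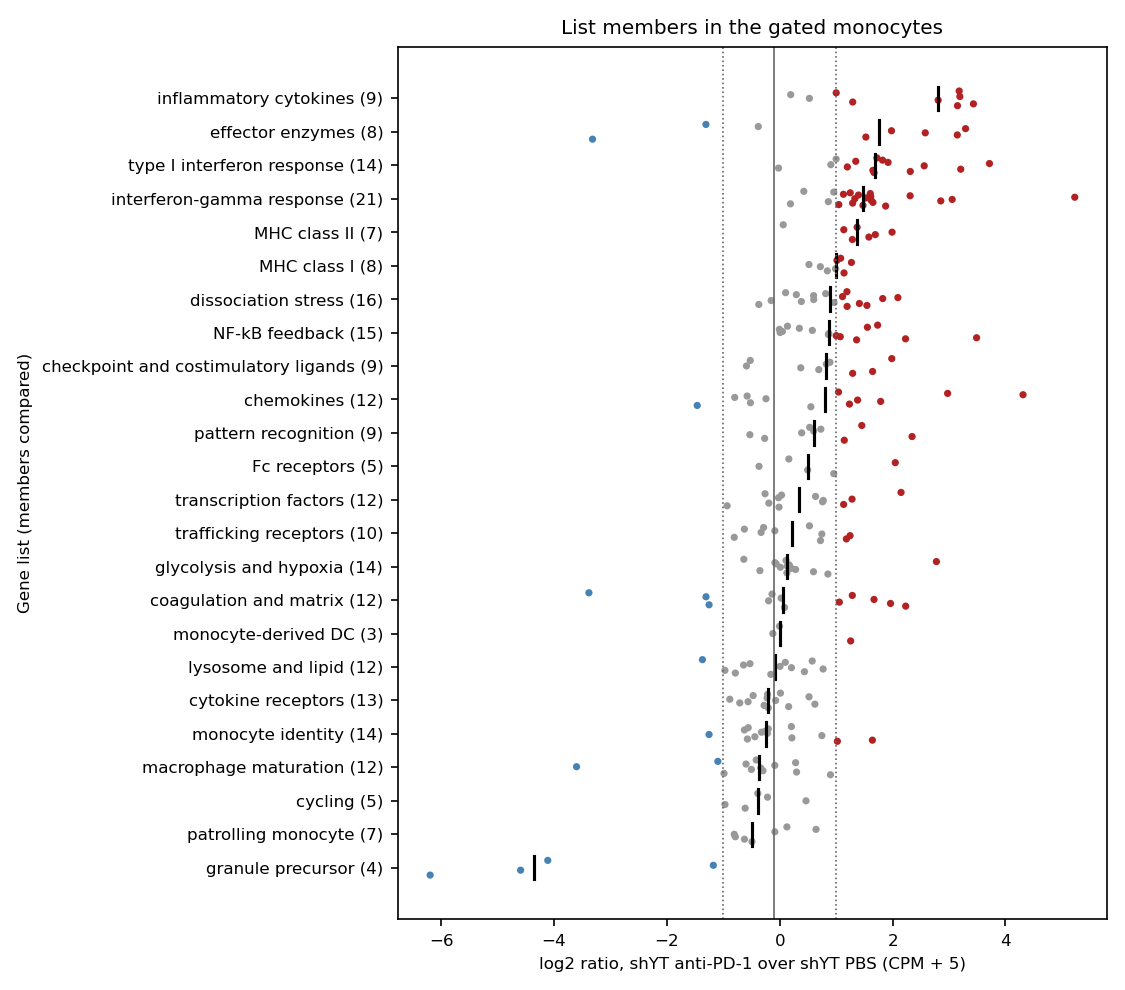
The log2 ratio (shYT anti–PD-1 over shYT PBS, CPM + 5) of each compared member of 24 gene lists in the gated monocytes, 1 point per gene, red past 2-fold higher, blue past 2-fold lower, with the list median as a black bar, the median of all 8139 genes as a solid line and 2-fold as dotted lines. The cytokine, interferon and MHC lists lie to the right, and monocyte identity and macrophage maturation close to or left of the line.

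Antigen presentation genes were higher too. All 8 MHC class I genes had a ratio above 0, 4 past 2-fold, with a median of 1.00. The heavy chain gene *H2-K1* had 1118 CPM in the PBS library and 2469.6 CPM in the anti–PD-1 library and β2-microglobulin (*B2m*) 3028 and 6017 CPM (0.99), and reads of H2 genes can be shared between near-identical members. Of 7 MHC class II genes 6 were past 2-fold higher, with a median of 1.37. The invariant chain gene *Cd74* had 740.3 CPM (692 to 791) in PBS and 2958 CPM (2768 to 3157) in anti–PD-1 monocytes (1.99). The α and β chain genes *H2-Aa* and *H2-Ab1* had 178 and 158 CPM in PBS and 442 and 481 CPM in anti–PD-1 monocytes. The lysosomal protease gene *Ctss* was the class II gene that did not pass, at 2481 and 2591 CPM. *Ciita*, the class II transactivator, was too sparse to compare closely, with 10 and 6 UMIs. In thinned T cells a *Cd74* UMI was found in 40.3% (PBS) and 62.3% (anti–PD-1), and in 50.8% and 71.9% of neutrophils, against 32.4% and 70.6% of monocytes. Neither monocyte share was above those of both other cells, so the shares show no *Cd74* expression by themselves. The level in T cells was 556 and 1049.8 CPM. For *H2-Ab1* the shares were 13.6% and 21.4% in T cells and 14.1% and 41.2% in monocytes. Over all kept cells the class II list was level between libraries, at 21826 and 21995 CPM.

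Inflammatory cytokine genes had a median of 2.81, which was 2.30 without top cells and 1.50 when the gate was set on counts thinned to 1000 UMIs. Of 15 genes 9 could be compared and 7 were past 2-fold higher. Among these 9, *Il27*, *Il1a* and *Il6* had few UMIs in PBS monocytes and met the limit on mean CPM through their anti–PD-1 counts. The median leaves out the genes under this limit, so its size depends in part on the limit. All 15 genes, taken without the limit, summed to 264 CPM in PBS and 1680 CPM in anti–PD-1 monocytes. *Il1b*, which encodes IL-1β, had 80 UMIs in 36 of 187 PBS cells and 241 UMIs in 28 of 51 anti–PD-1 cells. Its level was 68.5 and 789 CPM (3.43). *Osm*, the IL-6 family cytokine oncostatin M, had 45.4 CPM in 24 and 452 CPM in 32 cells (3.18). *Il27*, a subunit of a cytokine of myeloid cells that acts on T cells, had 4 UMIs in 4 PBS monocytes and 22 in 14 anti–PD-1 monocytes. *Il1a* had 3 and 19 UMIs and *Il6* 1 and 11, CPM ratios of 24.2 (7.13 to 128) and 42.1 (6.11 to 1810.0). *Tnf* had 46 and 18 UMIs, 39.4 (28.9 to 52.6) and 59.0 CPM (34.9 to 93.2), with overlapping intervals. *Il12b* and *Il23a*, subunits of IL-12 and IL-23, had 0 UMIs in both libraries, and *Il10* 0 and 3.

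Chemokine genes split. The neutrophil attractants were higher: *Cxcl2* had 197 CPM in 37 PBS cells and 1585 CPM in 33 anti–PD-1 cells (2.98), and *Cxcl1* had 1 UMI in PBS and 34 in anti–PD-1 monocytes, of which 12 lay in 1 of its 5 cells. The T cell and NK attractants *Ccl4* (248 and 868 CPM) and *Ccl5* (213 and 563 CPM) were past 2-fold higher, though *Ccl5* is abundant in T cells (a UMI in 47.7% and 56.3% of thinned cells) and turned to −0.34 in Y-positive cells. *Ccl3* went the other way, at 349.6 and 242 CPM (−0.52), though its ratio ran from −0.83 to 0.63 among the alternatives. Of the ligands of CCR2, *Ccl2* had 244 and 360.3 CPM (0.55), a direction that turned with the thinned gate (−0.13) and in cells without *C1qa* and *C1qb* UMIs (−3.46), against 2.53 in Y-positive cells. *Ccl7* had 72.0 and 22.9 CPM (−1.46), from 84 UMIs in 11 and 7 in 5 cells, and a ratio of 1.68 in Y-positive cells. *Ccl6* and *Ccl9*, constitutive chemokines of myeloid cells, were at 1269 and 1071 CPM and at 636 and 364 CPM.

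The 2 *Cxcl* promoters are printed because each holds the same NF-κB-type site close to the start. Capitals mark matches to GGGA, any 2 bases, TTCC on either strand, which overlap here, in *Cxcl1* (chr5:90891139-90891218, forward strand) and *Cxcl2* (chr5:90903767-90903846, forward strand), from RefSeq on GRCm38.p6.
Cxcl1: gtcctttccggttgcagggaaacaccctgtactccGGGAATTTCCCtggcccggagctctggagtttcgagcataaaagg
Cxcl2: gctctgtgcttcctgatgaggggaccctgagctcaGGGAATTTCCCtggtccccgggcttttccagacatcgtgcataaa
The matches begin 71 and 97 bases before the start. The motif was found in 3 of 8 chemokine promoters, 2 of 10 cytokine promoters, 1 of 11 NF-κB feedback promoters, 3 of 15 promoters of IFN-γ response genes and 1.43% of all. *Il1b* and *Tnfaip3* hold no match in this window, which says nothing of other sites, and *Osm* had no entry.

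NF-κB feedback genes, which the factor induces and which then restrain it, were past 2-fold higher for 7 of 15, with a median of 0.87. *Tnfaip3*, the ubiquitin editor A20, led with 36.0 CPM (25.9 to 48.6) in PBS and 455 CPM (383 to 538) in anti–PD-1 monocytes (3.49). *Nfkbiz* had 61.7 and 308 CPM, and the inhibitor gene *Nfkbia* 527 and 1363 CPM. The subunit genes *Nfkb1* (0.01) and *Nfkb2* (0.05) and the adhesion ligand gene *Icam1* (−0.01) had ratios near 0, though that of *Icam1* ran from −0.29 to 2.02 among the alternatives. A *Tnfaip3* UMI was found in 1.08% and 27.5% of thinned monocytes. The shares were 15.2% and 48.0% in T cells, which can make it themselves, 4.39% and 14.9% in B cells and 5.07% and 19.7% in neutrophils. For *Il1b* (0.652% and 6.12% of T cells, 3.78% and 35.3% of monocytes) and *Cxcl2* (0.693% and 9.66%, 9.19% and 41.2%) the monocyte shares were above those of T cells. Neutrophils held more *Il1b* than monocytes, with a UMI in 64.9% and 92.1% of thinned cells, and all kept cells had 135 and 932 CPM. For *Cxcl2* the neutrophil shares were 50.3% and 71.7%.

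Genes that tissue digestion is known to induce were higher as well. Of 16 such genes 7 were past 2-fold higher, with a median of 0.89, and the list summed to 8808 and 15466 CPM. The phosphatase gene *Dusp1* had 431 and 1857 CPM (2.09), the AP-1 genes *Fos* 882 and 2024 CPM and *Junb* 881 and 2352 CPM, and the stress factor gene *Atf3* 175 and 632 CPM (1.83). *Jun* (−0.37) and *Ier2* (−0.15) did not share this direction. The orphan nuclear receptor gene *Nr4a1*, another early response gene, had 317 and 1425 CPM (2.15). The part of tissue handling in the IFN-γ, cytokine, chemokine and NF-κB values was not tested. Of the 51 anti–PD-1 cells, 25 were above the upper quartile of PBS cells for both the cytokine and the digestion list, 10 for the cytokine list only and 9 for the digestion list only, against 16, 31 and 31 of 187 PBS cells. For the IFN-γ and digestion lists the counts were 28, 10 and 6, against 5, 42 and 42. As most anti–PD-1 cells were above each quartile alone, these counts do not show that the lists went together within cells.

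Receptors for microbial products and antibodies differed unevenly. *Cd14*, the coreceptor for lipopolysaccharide, had 449 CPM in 109 PBS cells and 2303 CPM in 48 of 51 anti–PD-1 cells (2.35), whereas its partner *Tlr4* had 72.0 and 59.0 CPM (−0.27). The ratio of *Tlr4* ran from −0.47 to 0.97 among the alternatives. *Tlr2* (1.14) and the inflammasome sensor gene *Nlrp3* (1.45) were past 2-fold higher, though *Tlr2* was under 2-fold with at least 4 markers (0.22), without *Chil3* (0.77) and with the thinned gate (0.82). Among 5 Fc receptor genes only *Fcgr4*, an activating receptor for IgG, passed 2-fold, at 75.4 and 328 CPM (2.05). The low-affinity receptor *Fcgr3* had 643 and 498 CPM and the shared chain *Fcer1g* 2372 and 2653 CPM. None of 13 cytokine receptor genes was past 2-fold: *Ifngr1* and *Ifngr2*, the chains of the IFN-γ receptor, had log2 ratios of −0.71 and −0.56, and *Csf1r*, the receptor for the macrophage growth factor CSF1, −0.20.

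Ligands of T cell receptors were sparse. *Cd274*, the gene of PD-L1, the ligand of the receptor that the antibody blocks, was found in 22 of 187 PBS cells with 34 UMIs (29.1 CPM, interval 20.2 to 40.7). It was found in 14 of 51 anti–PD-1 cells with 24 UMIs (78.6 CPM, interval 50.4 to 117), and its log2 ratio was 1.29. The B7 family genes *Cd80* (34.3 and 118 CPM, 1.65) and *Cd86* (54.8 and 91.7 CPM, 0.69) signal through CD28 and CTLA-4. *Tnfsf9*, the 4-1BB ligand, had 35.1 and 154 CPM. *Vsir*, the gene of the inhibitory protein VISTA, had 338 and 223 CPM (−0.59). In all, 3 of 9 genes compared were past 2-fold higher and 0 lower, with a median of 0.83.

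Monocyte identity genes split between 2 past 2-fold higher, 1 lower and 11 between, with a median of −0.24. *Plac8* had 1695 CPM in the PBS library and 3446 CPM in the anti–PD-1 library (1.02) and *Ms4a4c*, a membrane protein gene of Ly6C-high monocytes, 356 and 1123 CPM (1.64). *Fn1*, fibronectin, was lower, at 2941 CPM in 166 PBS cells and 1232 CPM in 30 anti–PD-1 cells (−1.25). *Lyz2* had 24724 and 16619 CPM (−0.57) and *Cybb*, the catalytic subunit of the phagocyte oxidase, 1343 and 911 CPM (−0.56). Of 12 transcription factor genes 3 were past 2-fold higher and 0 lower, with a median of 0.33. Nearly level were *Spi1* (PU.1) at 694 and 688 CPM, *Irf5* at 309 and 305 CPM and *Zeb2* at 452 and 462 CPM. *Cebpb*, a factor induced in activated myeloid cells, had 1324 and 2909 CPM (1.13), and *Cebpa* 105 and 52.4 CPM (−0.93).

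Genes of macrophage maturation summed to 7273 CPM in PBS and 4133 CPM in anti–PD-1 monocytes, with 0 of 12 compared past 2-fold higher and 2 lower (median −0.38). Over all kept cells the list summed to 30966 and 16347 CPM, so it was lower in the anti–PD-1 library as a whole. In macrophages without *Clec4f* (defined below) its median was −0.78, with 4 of 13 genes past 2-fold lower, and in Kupffer cells −0.44. Of all 8655 genes compared in these macrophages, 0.693% were past 2-fold lower. Most of the monocyte sum was *Apoe*, apolipoprotein E, at 5693 and 2869 CPM (−0.99), a gene so abundant that 71.6% and 65.0% of thinned T cells also had a UMI. *Selenop*, a selenium transport protein, had 299.9 and 138 CPM (−1.10), but −0.15 in Y-positive cells and −0.83 in a gate without *Chil3*. *Gas6*, a ligand of MERTK, had 65 UMIs in 21 PBS cells, 36 of them in 1 cell, and 0 in anti–PD-1 cells (interval up to 12.1 CPM). The PBS level of *Gas6*, 55.7 CPM (43.0 to 71.0), was 5.67 times the floor of 3 counts. Its log2 ratio was −0.65 with the thinned gate. Its thinned share was 3.78% in PBS monocytes, 3.79% in T cells and 5.56% in neutrophils, and so not above background. It was lower in T cells (52.8 and 13.7 CPM), B cells (51.0 and 20.7) and neutrophils (74.5 and 21.4) too. *Trem2* (188 and 131 CPM), *Mertk* (25.7 and 32.8 CPM) and *Adgre1*, the gene of F4/80 (138 and 111 CPM), were low in both. *C1qc* went the other way (94.2 and 180.1 CPM, 0.90), but the gate limits its 2 partner genes. Of 7 patrolling monocyte genes compared, 2 had a ratio above 0 and 5 below, with 0 past 2-fold (median −0.49). The 9 genes of that list summed to 607 and 524 CPM. Among them *Cx3cr1*, the fractalkine receptor, had 101 and 55.7 CPM and *Treml4* 58.3 and 36.0 CPM. The 8 genes of monocyte-derived dendritic cells summed to 42.8 and 68.8 CPM, from 50 and 21 UMIs. Of 3 compared, 1 was past 2-fold higher (1.26) and 0 lower, and 0 were past 2-fold without top cells. Of those not compared, *Cd209a*, *Mgl2* and *Zbtb46* had at most 1 UMI in either library.

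Among effector enzymes, *Ptgs2*, the prostaglandin synthase COX-2, had 20.6 CPM in 9 PBS cells and 246 CPM in 16 anti–PD-1 cells (3.29), and *Acod1*, which makes itaconate, 18.8 and 138 CPM (2.58). *Arg2* (1.53) and *Ass1* (1.98), 2 genes of arginine metabolism, were past 2-fold higher, with *Arg2* at 0.50 in cells without *C1qa* and *C1qb* UMIs. All 12 *Nos2* UMIs lay in 1 anti–PD-1 cell. *Arg1*, arginase 1, was the reverse, with 243 UMIs in 13 PBS cells, 79 of them in 1 cell, and 5 UMIs in 4 anti–PD-1 cells (−3.32). *Hmox1*, which degrades heme, had 364 and 144 CPM (−1.31). These lower values did not hold in Y-positive cells, where the log2 ratios were 0.60 for *Arg1* and 0.77 for *Hmox1*. The value of *Arg1* there rests on 1 UMI in PBS and 3 UMIs in anti–PD-1 cells, at the floor.

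Coagulation and matrix genes went both ways. *Thbs1*, thrombospondin 1, had 319 CPM in 68 PBS cells and 1516 CPM in 30 anti–PD-1 cells (2.23), and *Plaur*, the urokinase receptor, 234 and 927 CPM (1.96). *Mmp8*, a collagenase, was lower (299 and 118 CPM, −1.31), while *F10*, coagulation factor X, and *Tgfbi* were level (0.08 and 0.03). The ratio of *Tgfbi* ran from −0.59 to 1.15 among the alternatives. Lysosomal and lipid genes had a median of −0.08, with *Cd63* alone past 2-fold, at 236 and 88.4 CPM (−1.37, and −0.19 in a gate without *Chil3*), and *Ctsb* at 1710.2 and 1094 CPM (−0.64). Glycolysis genes had a median of 0.13 (1.29 in Y-positive cells), for example *Ldha* at 519 and 569.9 CPM. *Vegfa*, the angiogenic growth factor, was past 2-fold higher with 19 UMIs in 13 and 43 in 14 cells (2.78). The chemokine receptor gene *Cxcr4* (95.1 and 233 CPM, 1.25), which holds cells in the marrow, was past 2-fold higher. *Mki67*, a proliferation marker, had 44 and 7 UMIs, in 13 and 3 cells. *Yap1* and *Wwtr1*, the shRNA targets, had 3 UMIs in all among PBS and 0 among anti–PD-1 monocytes, so their depletion could not be read here.

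**Figure D3:**
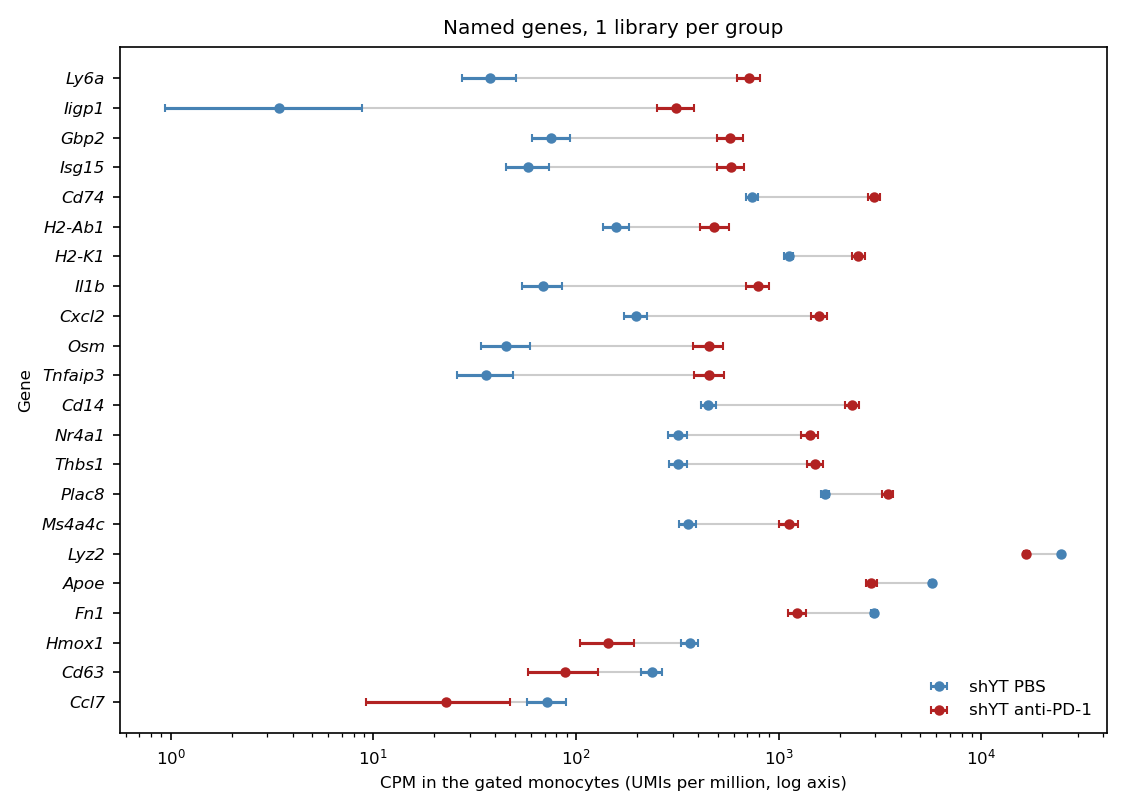
CPM (log axis) of 22 named genes in the gated monocytes of the shYT PBS and shYT anti–PD-1 libraries, each point 1 library with its exact 95% Poisson interval. From *Ly6a* to *Ms4a4c* the anti–PD-1 points lie to the right of the PBS points with intervals apart, and from *Lyz2* to *Ccl7* to the left.

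The 12 highest log2 ratios among genes with a mean of at least 20 CPM, apart from genes of the gate, sex-linked genes and markers of other cells, were those of *Iigp1*, *Cxcl1*, *Ly6a*, *Dusp5*, *Ifi44*, *Serpina3f*, *Tnfaip3*, *G0s2*, *Il1b*, *Slfn4*, *Ifi205* and *Ptgs2*. Of these, *Iigp1*, *Cxcl1*, *Dusp5*, *Ifi44*, *Serpina3f* and *G0s2* had at most 12 UMIs in PBS monocytes and met this limit through their anti–PD-1 counts. *Ly6a* (Sca-1), a relative of *Ly6c2* in the same gene cluster of chromosome 15, had 44 UMIs in 27 of 187 PBS cells and 217 in 32 of 51 anti–PD-1 cells. This made 37.7 and 711 CPM (4.07). *Dusp5*, an ERK phosphatase gene, had 9.42 and 193 CPM (3.78). Thinned, a *Dusp5* UMI was in 17.6% of anti–PD-1 monocytes, 27.2% of T cells, 16.5% of neutrophils and 7.01% of B cells, and a *Ly6a* UMI in 37.3%, 32.0%, 11.0% and 35.3%. The monocyte share of *Dusp5* was thus below that of T cells, and that of *Ly6a* close to those of T and B cells. The interferon-inducible genes *Slfn4* (24.8 and 301 CPM) and *Ifi205* (24.0 and 285 CPM) were detected in 20 and 31 anti–PD-1 cells. Thinned, a *Slfn4* UMI was in 21.6% of anti–PD-1 monocytes and 57.8% of neutrophils, and one of *G0s2* in 13.7% and 84.2%, while *Ifi205* was in 15.7% and 0.880%. Without top cells 10 of the 12 genes stayed among the highest. The sizes depended on the cells taken, and the lowest ratios were 2.81 for *Iigp1* (at least 2 markers), 2.29 for *Cxcl1* (thinned gate), 2.20 for *Ly6a* (at least 200 genes and no upper limit), 2.02 and 1.93 for *Ifi44* and *Ptgs2* (no *C1qa* or *C1qb* UMI), and 0.59, 2.22, 2.36 and 2.54 for *Serpina3f*, *G0s2*, *Ifi205* and *Slfn4* (Y-positive cells). Those of *Dusp5*, *Tnfaip3* and *Il1b* were 3.15, 3.08 and 2.96. At the lower end single cells weighed more: *Mpo*, *Cma1*, *Actc1*, *Elane*, *Tpsb2*, *Ctsg*, *Igfbp5*, *Timp1* and *Msln* each had over 90% of their PBS UMIs in 1 cell, and only *Gas6*, *Nt5dc2* and *Arg1* of the 12 did not. All of these 12 met the limit on mean CPM through their PBS counts. *Nt5dc2* had 59 UMIs in 36 PBS cells against 0 in anti–PD-1 monocytes (interval up to 12.1 CPM). The PBS level of *Nt5dc2*, 50.6 CPM (38.5 to 65.2), was 5.14 times the floor of 3 counts. Its log2 ratio of −3.47 was −1.84 at its weakest among the alternatives. Without top cells only *Gas6*, *Nt5dc2* and *Arg1* stayed among the 12 lowest, and other genes took the remaining places. Among the genes that entered was *Lrg1*, a secreted glycoprotein gene, with 350 UMIs in 78 PBS and 16 in 9 anti–PD-1 cells (299.9 and 52.4 CPM, −2.41). A *Lrg1* UMI was more frequent in neutrophils, in 47.0% and 51.1% of thinned cells, against 18.4% and 3.92% of monocytes.

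Within a library the monocytes varied widely. The IFN-γ response list took a median of 11.3 UMIs per 10000 in PBS cells (quartiles 6.76 and 18.2, highest 239) and 49.6 in anti–PD-1 cells (quartiles 17.4 and 72.6, highest 261). The ranges overlap, and 38 of 51 anti–PD-1 cells were above the PBS upper quartile. The same held for 43 of 51 with MHC class I, 37 with type I interferon genes, 35 with cytokines and 33 with MHC class II. Monocyte identity genes took a median of 364 and 253 UMIs per 10000, and maturation genes 51.0 and 19.7, with 4 of 51 anti–PD-1 cells above the PBS upper quartile of each. Of the anti–PD-1 cells 28 were above the PBS upper quartile for both IFN-γ and cytokine genes, 10 for the former only, 7 for the latter only and 6 for neither. As most of these cells were above each quartile alone, the joint count does not show that the lists went together within cells. In cells thinned to 1000 UMIs the medians of the IFN-γ list were 10 and 40 UMIs per 10000.

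**Figure D4:**
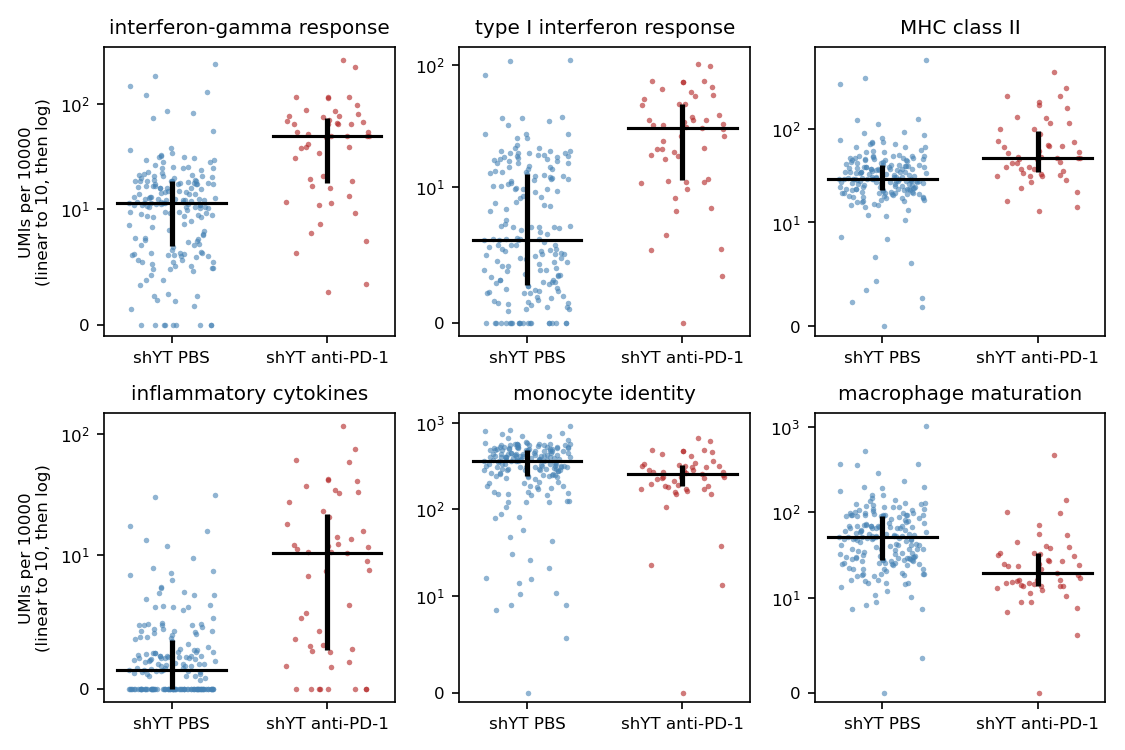
UMIs per 10000 of each gated monocyte from 6 gene lists (axis linear to 10, then log), 1 point per cell, 187 shYT PBS and 51 shYT anti–PD-1 cells, with the median as a horizontal and the quartiles as a vertical bar. The interferon, MHC class II and cytokine points of the anti–PD-1 library sit higher with overlapping ranges, and the identity and maturation points lower.

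The IFN-γ differences were present at each number of markers. The IFN-γ list summed to 2045, 1446 and 1568 CPM in PBS cells with 3, 4 and 5 markers, and to 5011, 4844 and 5631 CPM in anti–PD-1 cells. *Ly6c2* had 2057 CPM in PBS cells with 5 markers and 6684 CPM in the 9 anti–PD-1 cells with 5. The other markers were uneven in these cells: *Vcan* turned, with 855 and 969 CPM, *F13a1* was closer, with 1057 and 800.4 CPM, and *Chil3* stayed lower, with 11418 and 3299.8 CPM. *Apoe*, by contrast, was highest in cells with 3 markers and similar in those with 4 and 5. It had 8901, 4469 and 4410.5 CPM in PBS cells with 3, 4 and 5 markers, and 4797, 1042 and 983 CPM in anti–PD-1 cells. In the 76 PBS and 15 anti–PD-1 cells without any *C1qa* or *C1qb* UMI, the IFN-γ list summed to 1278 and 5193 CPM. In the 17 and 27 Y-positive cells it summed to 1786 and 5113 CPM, MHC class II to 2375 and 6942 CPM, and the cytokine list to 239 and 1900.4 CPM, so these differences were present among Y-positive cells too. The median log2 ratio of maturation genes turned from −0.38 to 0.52 in these cells and that of identity genes from −0.24 to 0.18. Summed maturation genes there were 3747 and 2636 CPM, a smaller difference than over all cells. Other genes named as past 2-fold were under it among Y-positive cells: *Cd274* (0.86), *Fos* (0.64), *Junb* (0.98), *Cebpb* (0.85), *Cxcr4* (0.94), *Serpina3f* (0.59) and *Mmp8* (−0.81). With at least 2 markers the same held for *H2-Aa* (0.67) and *H2-Ab1* (0.88), with the thinned gate for *Cd80* (0.90), with at least 4 markers for *Fn1* (−0.96) and without *Chil3* for *Ifit3* (0.93) and *Plac8* (0.87).

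The same lists were read in other cells of the libraries, gated by their own markers: macrophages without *Clec4f* (2807 PBS and 1060 anti–PD-1 cells with at least 3 *C1qa* and *C1qb* UMIs and a *C1qc* UMI), Kupffer cells (1397 and 2161), neutrophils (886 and 1403), T cells (2482 and 1583) and B cells (820 and 894). These comparisons share the libraries, so values are given side by side with no test of a difference. The Kupffer cell gate needs a *Clec4f* UMI and the macrophage gate none. Such UMIs were in 11.1% (PBS) and 34.5% (anti–PD-1) of cells with at least 2 T cell genes. Their part in which macrophages fell in either gate was not tested. For the IFN-γ list the median log2 ratio was 1.48 in monocytes, 1.47 in macrophages, 1.43 in Kupffer cells, 1.65 in neutrophils, 0.64 in B cells and 0.20 in T cells. That of the type I interferon list was 1.70 in monocytes, 1.57 in macrophages, 1.35 in Kupffer cells, 1.97 in neutrophils, 0.91 in B cells and 0.47 in T cells. MHC class II stood at 1.37 in monocytes, and at 0.06, 0.50, 0.13, 0.74 and 0.68 in macrophages, Kupffer cells, neutrophils, T cells and B cells. *Cd74* alone had a log2 ratio of 1.99 in monocytes and 0.28 in macrophages. In level, the class II list stood at 3872 and 7314 CPM in monocytes, 36932 and 40272 CPM in macrophages and 22191 and 30244 CPM in Kupffer cells. Monocytes were thus lower than both in each library, and higher than neutrophils (2602 and 3258 CPM). Cytokine genes stood at 2.81 in monocytes and 1.68 in macrophages (9 and 11 genes compared), and at 1.50 in monocytes of the thinned gate, below that of macrophages. Digestion genes stood at 0.89 and 1.32. *Fn1* differed in direction, −1.25 in monocytes and 0.84 in macrophages.

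**Figure D5:**
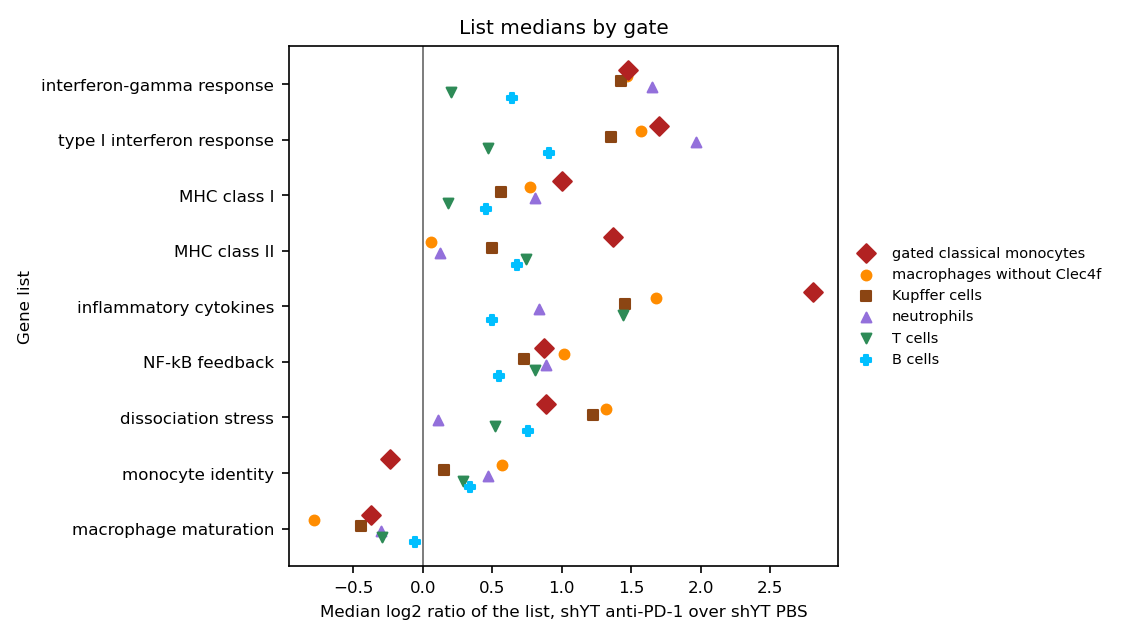
Median log2 ratio (shYT anti–PD-1 over shYT PBS) of 9 gene lists, 1 symbol per gate, for gated monocytes (red diamonds) and 5 other gates. For MHC class I and MHC class II the monocyte symbol lies farthest right (1.00 and 1.37), and for the IFN-γ list it lies beside those of macrophages, Kupffer cells and neutrophils.

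Markers of other cells were also counted in the gate. The lists of neutrophils, Kupffer cells, T cells, B cells and conventional dendritic cells each hold 1 gene that the gate sets to 0 (*Cxcr2*, *Clec4f*, *Cd3e*, *Cd79a* and *Flt3*), so their sums in the gate are partly fixed by the rule, while those over all kept cells include these genes. The 9 neutrophil genes summed to 2719 and 2181 CPM, against 3152 and 10182 over all kept cells, with *S100a8* at 1728 and 1127 CPM. The 5 Kupffer cell genes summed to 48.0 and 183 CPM (all kept cells, 2173 and 3391), with *Cd5l* at 18.8 and 95.0 CPM and *Timd4* at 3 and 7 UMIs. The 6 T cell genes summed to 67.7 and 62.2 CPM, the 6 B cell genes to 905 and 786, largely *Igkc*, of which 1 PBS cell held 532 of 805 UMIs, and the 5 NK genes to 213 and 373. The pancreatic acinar genes, which liver cells should lack, summed to 4.28 and 88.4 CPM in the gate and to 4.61 and 1029 over all kept cells, and erythroid genes to 4.28 and 59.0 CPM. Tumor and biliary genes were at 671 and 88.4 CPM, hepatocyte genes at 93.4 and 45.9, endothelial genes at 17.1 and 19.7, fibroblast genes at 176 and 504, and conventional dendritic cell genes at 0.857 and 6.55 CPM. The part of these transcripts in the monocyte values was not tested beyond the thinned shares of other cells given above.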

How the data were processed

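Single-cell suspensions of whole tumor-bearing livers (enzymatic digestion, red cell lysis, removal of debris and dead cells) were run on the Singleron platform. The deposited values are unnormalized UMI counts for each gene in each cell, made by the authors with Cell Scope against mm10. The authors' later steps (Seurat 4.3, SCTransform, integration) were not repeated, and no column of another sample was present. Library totals were 121713441 (PBS) and 100807037 (anti–PD-1) UMIs.

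Gated cells were summed per library and scaled to CPM with exact 95% Poisson intervals. The log2 ratio (anti–PD-1 over PBS) was taken after adding 5 CPM, which understates the ratio of low genes, for genes with a mean of at least 10 CPM. A gene past 2-fold had a log2 ratio of at least 1 in size. With 1 library per group no test was run and no SD can be given. Genes named were members of lists of known function and the 12 highest and 12 lowest ratios at a mean of at least 20 CPM; *Lrg1* and the genes of single odd cells were named after their values were seen. The members and lists were chosen with earlier results of these data known. The automatic threshold of Scrublet (scanpy 1.11.5) marked 0 cells, so doublets were treated by leaving out the top 5% of scores as an alternative. Scripts were tested on simulated data. Alternatives covered the gate, cell filters, pseudocount, scaling and CPM limit, and promoters were searched in the RefSeq table. Python 3.11.15, NumPy 2.4.6 and SciPy 1.17.1 were used. A few list members are not reported here by name.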

Additional observations from a re-analysis of the deposited data

Results flagged for a closer look

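Among the genes named, 5 with a mean of at least 20 CPM in both gates were past 2-fold in opposite directions in gated monocytes and in macrophages without *Clec4f*. *Mpo*, the granule peroxidase gene, had a log2 ratio of −6.20 in monocytes and 3.52 in macrophages, and 1 PBS cell held 95.7% of its UMIs in the monocyte gate. It had 0 UMIs in anti–PD-1 monocytes, and 0.355 (PBS) and 56.5 CPM (anti–PD-1) in macrophages. It thus met the limit in each gate through 1 library. Without top cells the monocyte ratio of *Mpo* was −2.03, and the weakest among the alternatives was −0.19. *Arg1* had −3.32 in monocytes and 1.09 in macrophages, with 243 UMIs in 13 PBS monocytes. *Prtn3*, another granule gene, had −1.18 in monocytes and 3.05 in macrophages. *Ccl7* had −1.46 and 2.20, and *Lrg1*, with 350 UMIs in 78 PBS monocytes, −2.41 and 1.35. *Lrg1* was more frequent in neutrophils, with a UMI in 47.0% and 51.1% of cells thinned to 1000 UMIs, against 18.4% and 3.92% of monocytes. In the monocytes, *Ccl7* turned to 1.68 and *Arg1* to 0.60 (1 and 3 UMIs) in Y-positive cells, and *Prtn3* to 0.13 when the gate was set on thinned counts. With 1 library per group the difference between gates was not tested.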

How the results depend on the processing

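No paired analysis was possible because each group has 1 library, and for the same reason no library could be left out. The share of gated cells was lower in the anti–PD-1 library in each alternative gate: 2.29% and 1.01% with at least 2 markers, 0.837% and 0.128% with at least 4, 0.927% and 0.177% without *Chil3*, 1.45% and 0.446% with the gate set on counts thinned to 1000 UMIs (called the thinned gate, with all UMIs of its cells summed), 0.489% and 0.0917% without *C1qa* and *C1qb* UMIs, and 0.520% (anti–PD-1) with *Clec4f* UMIs allowed. Genes past 2-fold higher and lower numbered 1279 and 1742 in Y-positive cells (17 and 27 cells), 1072 and 1550 without *C1qa* and *C1qb* UMIs (76 and 15 cells), 349 and 1188 without top cells, and 234 and 106 at a mean of at least 50 CPM, which moved the share of higher calls from 46.9% to 22.7% and 68.8% in the last 2. Genes lower numbered 931 with at least 4 markers, 892 with a pseudocount of 1 CPM and 1396 with no limit on CPM, where 34.5% of calls were higher. The split was 37.3% higher with at least 200 genes and no upper limit.

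The MHC class II median was 0.88 with at least 2 markers, 1.75 with the thinned gate, 1.83 in Y-positive cells, 1.69 without *C1qa* and *C1qb* UMIs and 1.70 with *Clec4f* UMIs allowed. The cytokine median was 1.50 with the thinned gate and the maturation median −1.05 with at least 4 markers. In Y-positive cells, the medians were 0.52 (maturation), 0.18 (identity), 3.15 (type I interferon) and 0.57 (digestion genes). The causes of these moves were not tested. In the same cells the ratios of *Hmox1* (0.77), *Arg1* (0.60), *Cxcl9* (−0.57), *Ccl5* (−0.34) and *Ccl7* (1.68) turned. Genes held by single cells turned as well: *Elane* with at least 4 markers (0.86), with the thinned gate (0.49), without *C1qa* and *C1qb* UMIs (0.95) and with at least 20 *Lyz2* UMIs per 10000 (0.021), *Siglech* in these settings except the third and also without *Chil3* and without top cells (−0.31, −0.19, −0.46, −0.52 and −0.23), *Dcn* with at least 2 markers (−0.30), without *C1qa* and *C1qb* UMIs (−3.73), with the *Lyz2* limit (−1.56) and without top cells (−1.53), and *Prtn3* (0.13) and *Cox6a2* (−0.19) with the thinned gate. *Ly6c1* turned with at least 2 markers (−0.80) and with the thinned gate (−0.54), and *Timd4* with the thinned gate (−0.0026) and without *C1qa* and *C1qb* UMIs (−0.96). The *Lyz2* limit, the top-cell repeat, the *Clec4f* repeat and the doublet repeat were chosen after seeing the data. Depth limits the anti–PD-1 gate, with 51 cells and 9.83 CPM as its floor.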
